A study of Mus musculus with 12 samples.

Results

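The 7 genes Rpl39l, Mobp, Sema3e, Rex2, 2410003I16Rik, Gm17546 and Gm13261 were picked because earlier results of these data gave higher values in arrays labelled RARaKO than in WT arrays, in atRA, in EtOH or in both. All probe sets whose platform annotation names one of them were taken: 15 of the 37600 probe sets tested, for 7 of the 16509 genes that have a probe set with a single symbol. Mobp has 5 probe sets, Sema3e has 4, Rex2 has 2, and the other genes have 1 each. The second Rex2 probe set, 1438237_at, is also annotated to Zfp980 and Zfp600, so its values belong to no single gene.

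Expression was measured on 12 Affymetrix arrays of F9 cells, a mouse teratocarcinoma line that resembles early embryonic cells and differentiates when given retinoic acid. The groups were RARaKO with all-trans retinoic acid (atRA), WT with atRA, RARaKO with EtOH and WT with EtOH, each with 3 arrays numbered as sets 2, 3 and 4. All 4 groups, controls included, were in 1 µg/ml cycloheximide, which blocks protein synthesis: 30 min of pretreatment preceded 7.5 h with 1 µM atRA or with 0.1% ethanol vehicle, 8 h in all. RARaKO is read here as a knockout of Rara, the retinoic acid receptor alpha gene. The labels do not say how the knockout was made, whether the line is 1 clone, or whether the sets were separate cultures, so a p-value speaks of array-to-array spread that may be technical.

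Values are on a scale taken as log2, and each probe set is centred on its own median, which leaves differences between groups but no levels. Errors after a group mean are SDs with n = 3, and errors after a difference are standard errors of the limma fit. The arrays separated by genotype on their first principal component (32.9% of the variance), with RARaKO arrays between -28.26 and -9.1 and WT arrays between 11.2 and 19.49. The probe set for the targeted gene, Rara, averaged 0.20 ± 0.13 in RARaKO atRA arrays against -0.16 ± 0.11 in WT atRA arrays, and 0.30 ± 0.02 in RARaKO EtOH arrays against -0.60 ± 0.14 in WT EtOH arrays. It was thus higher where a knockout was labelled, and every genotype direction here rests on the labels. Recovered values of markers, here and below, are those of the best probe set of each gene. All 10 of 10 embryonal carcinoma markers, Pou5f1 and Sox2 among them, had a recovered value of at least 8 on every array before centring. The same held for 8 of 10 extraembryonic endoderm markers and 0 of 4 measured fibroblast markers.

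The 7 genes have unlike roles. Rpl39l encodes a paralogue of the ribosomal protein Rpl39, which lines the exit tunnel of the large subunit, and is known for expression in male germ cells. Mobp encodes a basic protein of central nervous system myelin, made by oligodendrocytes, and Sema3e encodes a secreted class 3 semaphorin that guides axons and blood vessels through the receptor plexin D1. Rex2 is a zinc finger gene. Gm17546 and Gm13261 are annotated as long noncoding RNAs, and 2410003I16Rik is a gene named only by its clone. By gene ID in the GRCm38.p6 RefSeq table, 6 of the 7 were placed, each on its own chromosome: Rpl39l on 16, Mobp on 9, Sema3e on 5, Rex2 on 4, Gm17546 on 15 and Gm13261 on 2.

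Since the genes were picked for a shared direction and the study concerns a retinoic acid receptor, the promoters are shown for the letters such receptors are known to bind. RefSeq windows (GRCm38.p6) of 300 bases, from 250 before to 50 after the start, were found for 5 of the 7 genes. The 3 printed are that of the gene with the largest difference, which held no match, and those of Sema3e and Gm13261, which did. Capitals mark GGTCA or its reverse complement TGACC, the core of the half-site AGGTCA. The windows, read 5′ to 3′ along the gene, are chr16:10169978-10170277 on the plus strand, chr5:14025026-14025325 on the plus strand and chr2:10365074-10365373 on the minus strand.
Rpl39l: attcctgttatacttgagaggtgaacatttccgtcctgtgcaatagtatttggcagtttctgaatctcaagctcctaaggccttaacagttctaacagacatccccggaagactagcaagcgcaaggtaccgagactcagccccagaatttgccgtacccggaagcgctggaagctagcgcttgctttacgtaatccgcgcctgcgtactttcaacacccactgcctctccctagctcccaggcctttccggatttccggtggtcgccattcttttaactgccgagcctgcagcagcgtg
Sema3e: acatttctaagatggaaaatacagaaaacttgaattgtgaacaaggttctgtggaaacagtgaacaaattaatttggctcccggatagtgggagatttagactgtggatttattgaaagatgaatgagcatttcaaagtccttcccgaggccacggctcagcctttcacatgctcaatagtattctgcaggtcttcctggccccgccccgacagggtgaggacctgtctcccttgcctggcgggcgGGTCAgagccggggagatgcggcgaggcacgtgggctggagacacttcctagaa
Gm13261: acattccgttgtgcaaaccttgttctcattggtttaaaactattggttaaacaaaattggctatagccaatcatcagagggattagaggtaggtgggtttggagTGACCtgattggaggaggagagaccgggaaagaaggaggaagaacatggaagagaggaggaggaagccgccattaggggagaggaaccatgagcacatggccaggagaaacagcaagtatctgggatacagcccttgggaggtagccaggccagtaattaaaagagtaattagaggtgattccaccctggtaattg

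Motifs were searched on both strands. GGTCA was in the windows of Sema3e, Rex2 and Gm13261 (chosen as the first of 3 overlapping windows) and in 40.5% of all 32851 promoters of that length. The longer AGGTCA, which contains GGTCA, was in that of Gm13261 and in 16.3% of all promoters. A direct repeat of GGTCA with 5 bases between its copies was in none of the 5 and in 0.0761% of all. It is not the DR5 element of retinoic acid receptors, whose 5 bases lie between full half-sites AGGTCA. The DR5 element was not searched. Sema3e held 2 copies of the GC box GGGCGG (35.7% of all promoters) and 1 E-box CACGTG (7.15%), Rex2 held 1 GC box and 1 CCAAT, and Gm13261 held 5 copies of CCAAT (37.4%). TATAAA was in none of the 5 and in 13.6% of all. Rpl39l had 17 CpG dinucleotides and a GC content of 52.7%, equal to the median of all promoters, against 5 CpG and 43.3% for Mobp, 11 and 50.7% for Sema3e, 5 and 42.3% for Rex2, and 3 and 47.0% for Gm13261. A match is a description of letters, and no match says only that they are not in the window.

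In the comparison of genotypes, Rpl39l had the largest difference of the 7 genes in both treatments. Rpl39l (1423327_at) read 1.13, 0.99 and 1.10 in RARaKO atRA arrays of sets 2, 3 and 4, against -1.28, -1.21 and -0.99 in WT atRA arrays. It read 1.21, 1.04 and 1.07 in RARaKO EtOH arrays, against -1.08, -1.48 and -1.16 in WT EtOH arrays. All 6 RARaKO arrays lay above all 6 WT arrays, with gaps of 1.97 in atRA and 2.12 in EtOH between the nearest arrays. The difference was 2.23 ± 0.11 in atRA, a 4.69-fold difference, and 2.34 ± 0.11 in EtOH, a 5.08-fold difference, rank 3 from the highest of 37600 probe sets in each. Before centring its value was at least 8 on all 12 arrays, a class that held 33.9% of probe sets. The probe sets of the other genes were in the class of 4 to 8, which held 64.0%. The shared Rex2 probe set 1438237_at was the exception, at 8 or more. The rule used the genotype contrasts in atRA and EtOH, so the values of the 7 genes in them are given as a description, with no test. In bulk samples, fewer cells of a type and less RNA per cell cannot be told apart.

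**Figure D1:**
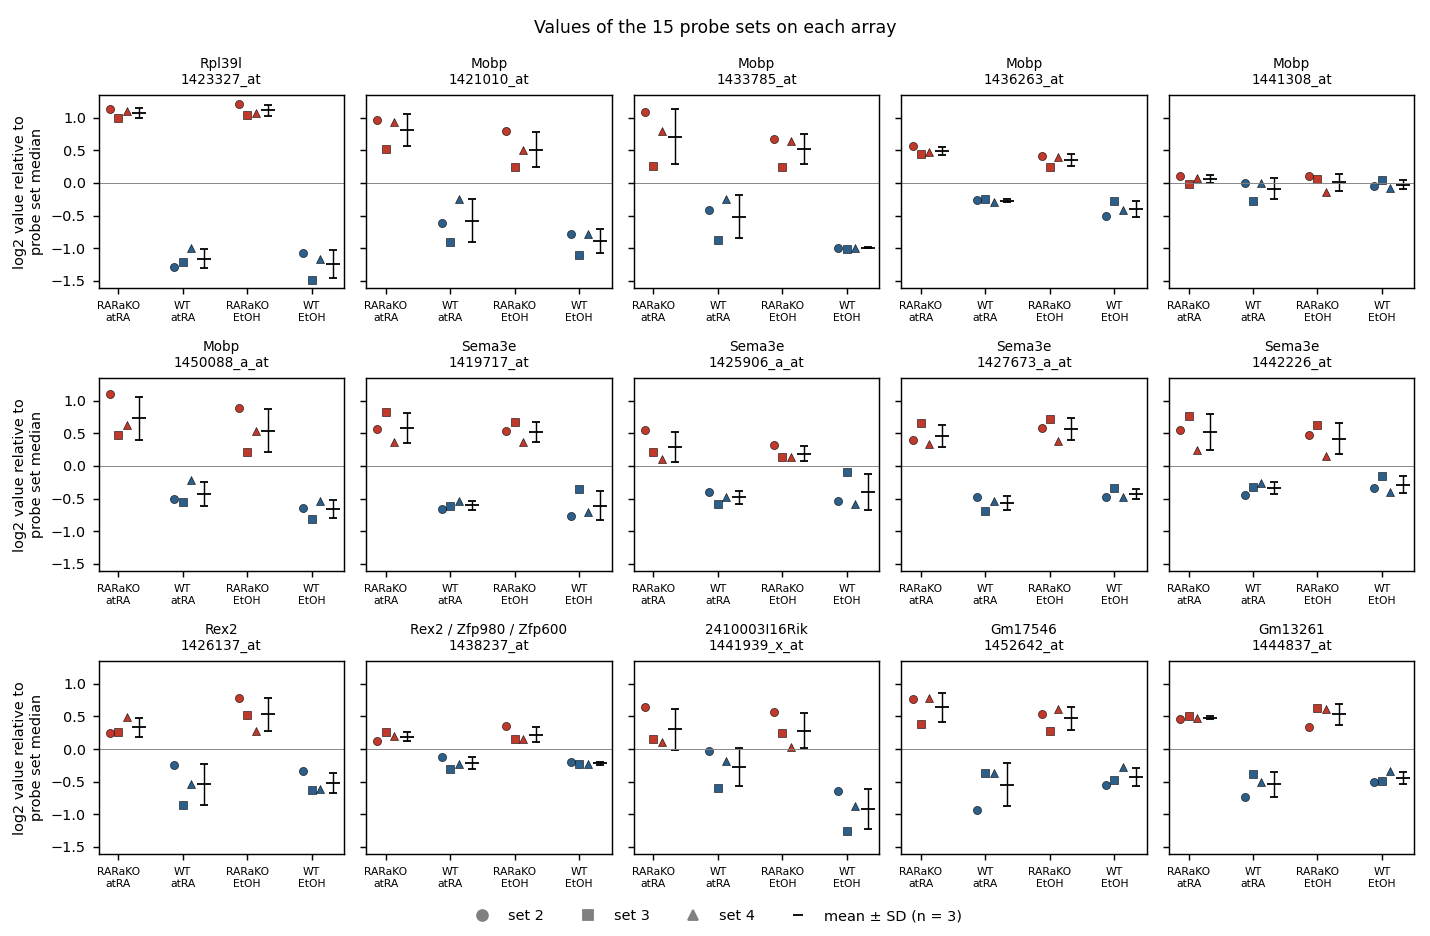
Values of the 15 probe sets on each array, log2 relative to the probe set's median, for RARaKO atRA, WT atRA, RARaKO EtOH and WT EtOH arrays, with marker shape for the set and the bar for the mean ± SD (n = 3). Rpl39l has the widest gap between RARaKO and WT arrays, and Mobp 1441308_at has overlapping groups in both treatments.

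Of 48 cytosolic ribosomal protein genes none was called in either treatment (limma, adjusted p under 0.05), with 8 at an unadjusted p under 0.05 in atRA and 1 in EtOH, and median differences of -0.01 in atRA and 0.00 in EtOH. Rpl39 itself differed by -0.03 ± 0.05 in atRA (adjusted p = 0.817) and -0.01 ± 0.05 in EtOH (adjusted p = 0.946). Of 8 listed ribosomal protein paralogues, a list that counts Rpl39 again, 6 were measured and none was called, with 2 at an unadjusted p under 0.05 in atRA and 1 in EtOH. For genotype differences the share of all genes or probe sets at an unadjusted p under 0.05 was not computed. Such counts, here and below, thus have no background and are a description. They take both directions together.

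Mobp was higher in arrays labelled RARaKO by 4 of its 5 probe sets. Probe set 1421010_at read 0.97, 0.52 and 0.93 in RARaKO atRA arrays against -0.61, -0.90 and -0.24 in WT atRA arrays, and 0.79, 0.24 and 0.51 in RARaKO EtOH arrays against -0.79, -1.11 and -0.78 in WT EtOH arrays. The differences were 1.39 ± 0.18 in atRA (2.62-fold) and 1.40 ± 0.18 in EtOH (2.64-fold), with no overlap between genotypes. In both genotypes set 3 gave the lowest values of this probe set, in atRA and in EtOH.

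The other Mobp probe sets gave differences of 1.23 ± 0.20 in atRA and 1.51 ± 0.20 in EtOH (1433785_at), 1.16 ± 0.18 and 1.21 ± 0.18 (1450088_a_at), and 0.76 ± 0.07 and 0.75 ± 0.07 (1436263_at). The remaining probe set, 1441308_at, differed by 0.15 ± 0.09 in atRA and 0.04 ± 0.09 in EtOH. Its groups overlapped: it read 0.10, -0.01 and 0.08 in RARaKO atRA arrays against 0.00, -0.28 and -0.00 in WT atRA arrays, and 0.11, 0.06 and -0.14 in RARaKO EtOH arrays against -0.04, 0.05 and -0.08 in WT EtOH arrays. Averaged over the 5 probe sets, Mobp differed by 0.94 in atRA and 0.98 in EtOH.

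No other myelin gene was called higher. Of 8 measured of 12 listed, Cnp, an oligodendrocyte enzyme also found in other cells, was the 1 called, lower in atRA (-0.41 ± 0.10, adjusted p = 0.0475). At an unadjusted p under 0.05, in either direction, there were 4 in atRA and 3 in EtOH. The call of Cnp was lost without any of 9 single arrays, all but WT EtOH of set 2 and RARaKO EtOH of sets 3 and 4 (adjusted p between 0.0533 and 0.152). Cnp was also the 1 of the 8 oligodendrocyte markers with a value of at least 8 on every array before centring, and their mean lay between -0.01 and 0.07 in RARaKO atRA arrays, between -0.00 and 0.03 in WT atRA arrays, between -0.04 and 0.02 in RARaKO EtOH arrays and between -0.03 and -0.01 in WT EtOH arrays. Of 6 measured neuron markers 3, Elavl4, Stmn2 and Tubb3, were called higher in each treatment. Over all genes 2.39% were called higher in atRA and 2.97% in EtOH. The mean of the 6 lay between 0.22 and 0.36 in RARaKO arrays against -0.28 to -0.18 in WT arrays. Stmn2 has a large part in that mean, with differences of 2.01 in atRA and 2.15 in EtOH on 1423281_at. None of the 6 had a value of at least 8 on every array, and their part in the results was not tested.

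Sema3e was higher in arrays labelled RARaKO by all 4 of its probe sets. Probe set 1419717_at read 0.56, 0.82 and 0.37 in RARaKO atRA arrays against -0.66, -0.61 and -0.53 in WT atRA arrays, and 0.54, 0.68 and 0.36 in RARaKO EtOH arrays against -0.77, -0.36 and -0.71 in WT EtOH arrays. Genotypes did not overlap, and the differences were 1.18 ± 0.13 in atRA (2.27-fold) and 1.14 ± 0.13 in EtOH (2.20-fold). The other probe sets differed by 1.03 ± 0.10 in atRA and 0.99 ± 0.10 in EtOH (1427673_a_at), 0.86 ± 0.14 and 0.71 ± 0.14 (1442226_at), and 0.77 ± 0.13 and 0.60 ± 0.13 (1425906_a_at). In the last, the highest WT EtOH value was -0.10 in set 3, against 0.13 as the lowest RARaKO EtOH value.

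The receptor gene Plxnd1 differed by 0.21 ± 0.14 in atRA (adjusted p = 0.457) and -0.01 ± 0.14 in EtOH (adjusted p = 0.984). Of 16 measured of 17 listed genes of semaphorin signalling, Nrp2, a co-receptor, was called higher in atRA (0.74 ± 0.17, adjusted p = 0.0359) and Plxna2, a plexin, in EtOH (0.54 ± 0.13, adjusted p = 0.0457). Over all genes 2.39% were called higher in atRA and 2.97% in EtOH. At an unadjusted p under 0.05, in either direction, there were 7 of the 16 in atRA and 6 in EtOH, with no share over all genes computed. The call of Nrp2 was lost without any of 6 single arrays, RARaKO atRA of sets 2 and 3, WT atRA of sets 2, 3 and 4 or RARaKO EtOH of set 3 (adjusted p up to 0.111). That of Plxna2 was lost without any of 7, RARaKO EtOH of sets 2, 3 and 4, WT EtOH of sets 3 and 4, RARaKO atRA of set 4 or WT atRA of set 3 (adjusted p up to 0.182).

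Rex2 was higher in arrays labelled RARaKO by both probe sets. Probe set 1426137_at read 0.24, 0.26 and 0.49 in RARaKO atRA arrays against -0.24, -0.86 and -0.53 in WT atRA arrays, and 0.78, 0.52 and 0.28 in RARaKO EtOH arrays against -0.34, -0.62 and -0.61 in WT EtOH arrays. The differences were 0.87 ± 0.15 in atRA (1.83-fold) and 1.05 ± 0.15 in EtOH (2.07-fold). The probe set shared with Zfp980 and Zfp600 differed by 0.41 ± 0.07 and 0.44 ± 0.07, with no overlap between genotypes. Zinc finger genes of such families are near copies of each other, so the assignment of either probe set to Rex2 alone is uncertain. Among 299 genes named Zfp plus a number, 16 were called higher and 3 lower in atRA, against 395 genes (2.39%) higher and 444 (2.69%) lower over all genes. In EtOH 21 were called higher and 4 lower, against 490 (2.97%) higher and 326 (1.97%) lower. The smallest p of the list in atRA was that of Zfp365, which was lower (-0.89 ± 0.11, limma adjusted p = 5.67e-04). In EtOH it was that of Zfp560, which was higher (0.69 ± 0.08, adjusted p = 3.23e-04), as it was in atRA (0.56 ± 0.08, adjusted p = 0.00163).

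2410003I16Rik differed more in EtOH than in atRA. It read 0.65, 0.16 and 0.10 in RARaKO atRA arrays against -0.03, -0.59 and -0.19 in WT atRA arrays, and 0.57, 0.24 and 0.03 in RARaKO EtOH arrays against -0.64, -1.25 and -0.88 in WT EtOH arrays. The genotypes did not overlap, but in atRA the nearest RARaKO and WT arrays were 0.13 apart. The difference was 0.57 ± 0.20 in atRA (1.49-fold) and 1.21 ± 0.20 in EtOH (2.31-fold). Its single probe set, 1441939_x_at, is of a type whose probes can match other transcripts. The mean in WT arrays was -0.27 ± 0.29 with atRA against -0.92 ± 0.31 with EtOH, a response of 0.65 ± 0.20. In RARaKO arrays it was 0.30 ± 0.31 with atRA against 0.28 ± 0.27 with EtOH, a response of 0.02 ± 0.20. The difference of the responses was -0.63 ± 0.28. It shares arrays with the contrasts that chose the gene, so no p is given.

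Both noncoding RNAs were higher in arrays labelled RARaKO in each treatment. Gm17546 (1452642_at) read 0.77, 0.39 and 0.78 in RARaKO atRA arrays against -0.93, -0.37 and -0.36 in WT atRA arrays, and 0.54, 0.27 and 0.62 in RARaKO EtOH arrays against -0.55, -0.47 and -0.27 in WT EtOH arrays. Its differences were 1.19 ± 0.16 in atRA (2.29-fold) and 0.91 ± 0.16 in EtOH (1.87-fold). Neither treatment had an overlap of genotypes. Gm13261 (1444837_at) read 0.46, 0.50 and 0.48 in RARaKO atRA arrays against -0.74, -0.38 and -0.50 in WT atRA arrays, and 0.34, 0.63 and 0.62 in RARaKO EtOH arrays against -0.50, -0.49 and -0.34 in WT EtOH arrays. Its differences were 1.02 ± 0.10 in atRA (2.03-fold) and 0.97 ± 0.10 in EtOH (1.96-fold), again with no overlap.

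Counted over the 15 probe sets, all RARaKO arrays lay above all WT arrays in 14 in atRA and in 14 in EtOH, against 9.90% and 9.69% of all probe sets. In atRA 13 were called higher, where 1.61% of all probe sets were, and in EtOH 14 were, where 1.84% were (3.12% and 3.01% in either direction). These counts come from the contrasts that chose the genes and support nothing. The median difference was 1.02 in atRA and 0.99 in EtOH, against 0.004 and -0.014 over all probe sets. Of the 15 probe sets, 7 had a larger difference in EtOH than in atRA. Within sets, Mobp 1441308_at had the sole negative difference, -0.05 in EtOH set 4.

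**Figure D2:**
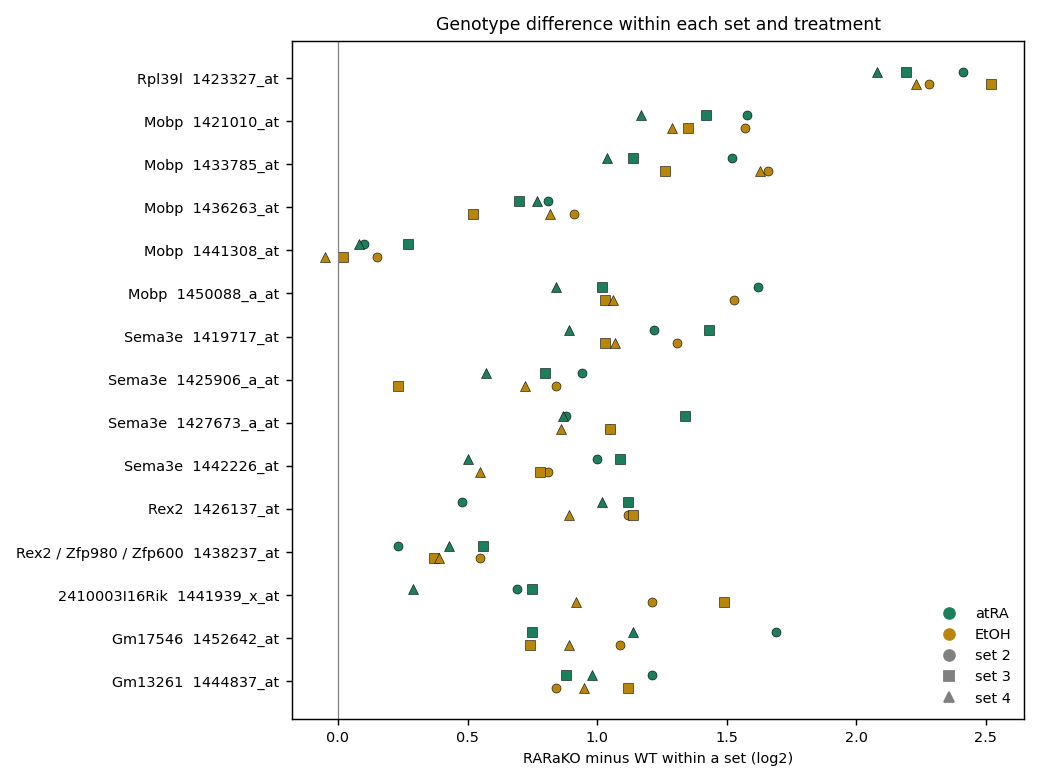
RARaKO minus WT (log2) within each of sets 2, 3 and 4, in atRA and in EtOH, for the 15 probe sets. Rpl39l lies farthest right in every set, 2410003I16Rik is lower in atRA than in EtOH in each set, and Mobp 1441308_at lies near 0.

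The response to atRA averaged over both genotypes is orthogonal to the genotype differences, so the choice of the genes did not use it, and it is the test reported for them. None of the 15 probe sets was called (limma), where 603 of all probe sets, 1.60%, were, 1.06% higher and 0.543% lower. At an unadjusted p under 0.05 there were 4 of the 15, against 11.3% of all probe sets. The responses ran from -0.12 to 0.34 with a median of 0.02, against -0.006 over all, and 10 of the 15 were above 0. Rpl39l responded by 0.02 ± 0.07 (adjusted p = 0.94), Gm17546 by 0.02 (adjusted p = 0.959), Gm13261 by -0.07 ± 0.07 (adjusted p = 0.765) and Rex2 by -0.11 ± 0.11 (adjusted p = 0.777).

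The 4 with an unadjusted p under 0.05 were 3 of Mobp and that of 2410003I16Rik. Mobp 1421010_at responded by 0.30 ± 0.13 (adjusted p = 0.39), 1433785_at by 0.34 ± 0.14 (adjusted p = 0.379) and 1436263_at by 0.14 ± 0.05 (adjusted p = 0.288). 2410003I16Rik responded by 0.34 ± 0.14 (adjusted p = 0.382). With the set as a replicate block, 1421010_at (0.30, adjusted p = 0.0475) and 2410003I16Rik (0.34, adjusted p = 0.0457) were called, where 887 of all probe sets, 2.36%, were. These 3 Mobp probe sets and 1450088_a_at (0.21 ± 0.13, adjusted p = 0.583) were higher with atRA in 6 of 6 comparisons within a set and genotype. Sema3e 1427673_a_at was lower in 6 of 6, by -0.12 ± 0.07 on average (adjusted p = 0.586), and the other Sema3e probe sets lay between 0.01 and 0.03. For scale, the co-receptor gene Nrp1 responded by 0.97 ± 0.08 (1418084_at, adjusted p = 3.34e-05) and Sema3c, a relative of Sema3e, by -0.72 ± 0.09 on 1429348_at (adjusted p = 0.0015) and by -0.34 ± 0.09 on 1420696_at (adjusted p = 0.0875).

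**Figure D3:**
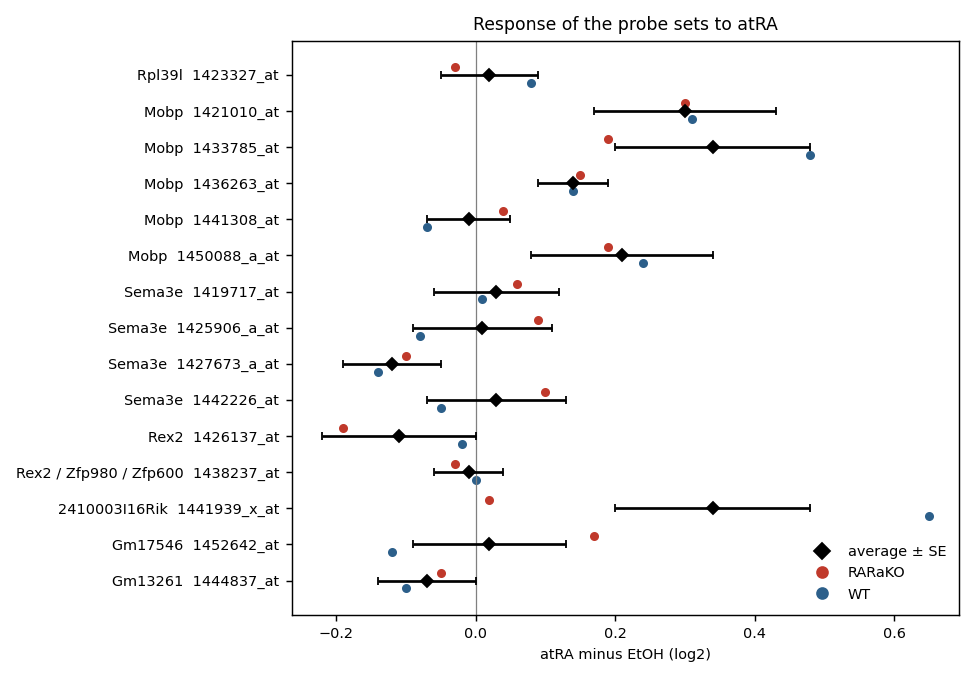
Response to atRA, atRA minus EtOH (log2), of the 15 probe sets: averaged over the genotypes with its standard error, and in RARaKO and in WT arrays. The averages lie between -0.12 and 0.34, and the genotypes are farthest apart for 2410003I16Rik, at 0.02 in RARaKO and 0.65 in WT.

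Deviations from the group means were compared over the 12 arrays as a description of how far probe sets move together within groups. Among the 10 pairs of Mobp probe sets the correlation ran from 0.04 to 0.85 with a median of 0.40, and among the 6 pairs of Sema3e from 0.31 to 0.91 with a median of 0.64. Over 89 pairs with unlike annotation it ran from -0.83 to 0.78 with a median of 0.05. These include the pair of Rex2 probe sets (0.78), since 1438237_at is also annotated to other genes. Probe sets of 1 gene and arrays of 1 set share RNA and processing.

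Neighbouring genes, which were not chosen on the genotype differences, were read for the 6 placed genes: the 5 nearest measured genes on each side, 60 genes with 114 probe sets. Of these probe sets 5 were called higher and 1 lower in atRA, and 5 higher and 0 lower in EtOH (limma). Over all probe sets 1.61% were higher and 1.51% lower in atRA, and 1.84% higher and 1.16% lower in EtOH. With the set as a replicate block the number called in EtOH was 10, where 1972 of all probe sets, 5.24%, were, the added ones being Cacna2d1 near Sema3e (-0.37, adjusted p = 0.0473), Gm13238 near Rex2 (0.39, adjusted p = 0.0479), both probe sets of Miip near Rex2 (-0.35 and -0.30) and a second of Ano6 near Gm17546 (0.30, adjusted p = 0.0423). The median difference was 0.03 in atRA and 0.01 in EtOH. Without the block no neighbour of Mobp or Sema3e was called, with 2 probe sets of each at an unadjusted p under 0.05 in atRA and 0 and 1 in EtOH. The nearest measured genes can lie far off, with many unread genes between. The RefSeq table lists 77 genes between Sema3e and Tmem243, 11 between Mobp and Csrnp1, and 93 between Gm13261 and Il2ra. Near Rpl39l only Nubp1 was called, lower in atRA on 1418906_at (-0.31 ± 0.07, adjusted p = 0.029), a call lost without any of 4 single arrays, namely RARaKO atRA of sets 2 and 3 and WT atRA of sets 3 and 4 (adjusted p up to 0.125). Its other probe sets, 1418905_at (-0.08, adjusted p = 0.634) and 1430778_a_at (-0.06, adjusted p = 0.737), were not called in atRA.

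Gm13261 and Gm17546 each had an adjacent gene, with no other table gene between, that was called higher in both treatments. How many of all genes were called higher in both treatments was not computed. Beside Gm13261 lies Sfmbt2, a Polycomb group gene, whose probe set 1434353_at differed by 1.15 ± 0.17 in atRA (adjusted p = 0.00245) and 1.02 ± 0.17 in EtOH (adjusted p = 0.00545). A second Sfmbt2 probe set, 1443176_at, differed by 0.24 ± 0.09 and 0.14 ± 0.09 and was not called. Beside Gm17546 lies Ano6, a membrane scramblase gene, which differed by 0.35 ± 0.06 in atRA (adjusted p = 0.00753) and 0.27 ± 0.06 in EtOH (adjusted p = 0.0322) on 1455308_at. A second Ano6 probe set, 1455309_at, differed by 0.21 ± 0.08 in atRA (adjusted p = 0.179) and 0.30 ± 0.08 in EtOH (adjusted p = 0.0626) and was not called. The EtOH call of Ano6 was lost without any one of the 6 EtOH arrays (adjusted p up to 0.123), and both calls without any single one of the 3 sets.

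Near Rex2, 3 of 10 genes were called higher in both treatments, in a stretch of zinc finger genes. Of all genes, 2.39% were called higher in atRA and 2.97% in EtOH, and the share called higher in both was not computed. Zfp991 and Zfp979 have names of the form counted in the zinc finger list, so these counts are not separate. Zfp991 differed by 0.64 ± 0.12 in atRA (adjusted p = 0.0105) and 0.67 ± 0.12 in EtOH (adjusted p = 0.00788) on 1424784_at, and its other probe sets were not called. Znf41-ps differed by 0.44 ± 0.09 (adjusted p = 0.0197) and 0.49 ± 0.09 (adjusted p = 0.0117), and Zfp979 by 0.55 ± 0.13 (adjusted p = 0.0454) and 0.66 ± 0.13 (adjusted p = 0.0175). The atRA call of Znf41-ps was lost without RARaKO atRA of sets 3 or 4 or WT atRA of sets 2 or 3 (adjusted p up to 0.0783). That of Zfp979 was lost without any of 9 single arrays, all but RARaKO atRA of set 2 and RARaKO EtOH of sets 2 and 4 (adjusted p up to 0.128), and its EtOH call without RARaKO EtOH of sets 2 or 3 or WT EtOH of sets 2 or 4 (adjusted p up to 0.0826). The table lists other genes between Rex2 and each of them, 30 before Znf41-ps, 7 before Zfp991 and 22 before Zfp979, and near copies can share probes.

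**Figure D4:**
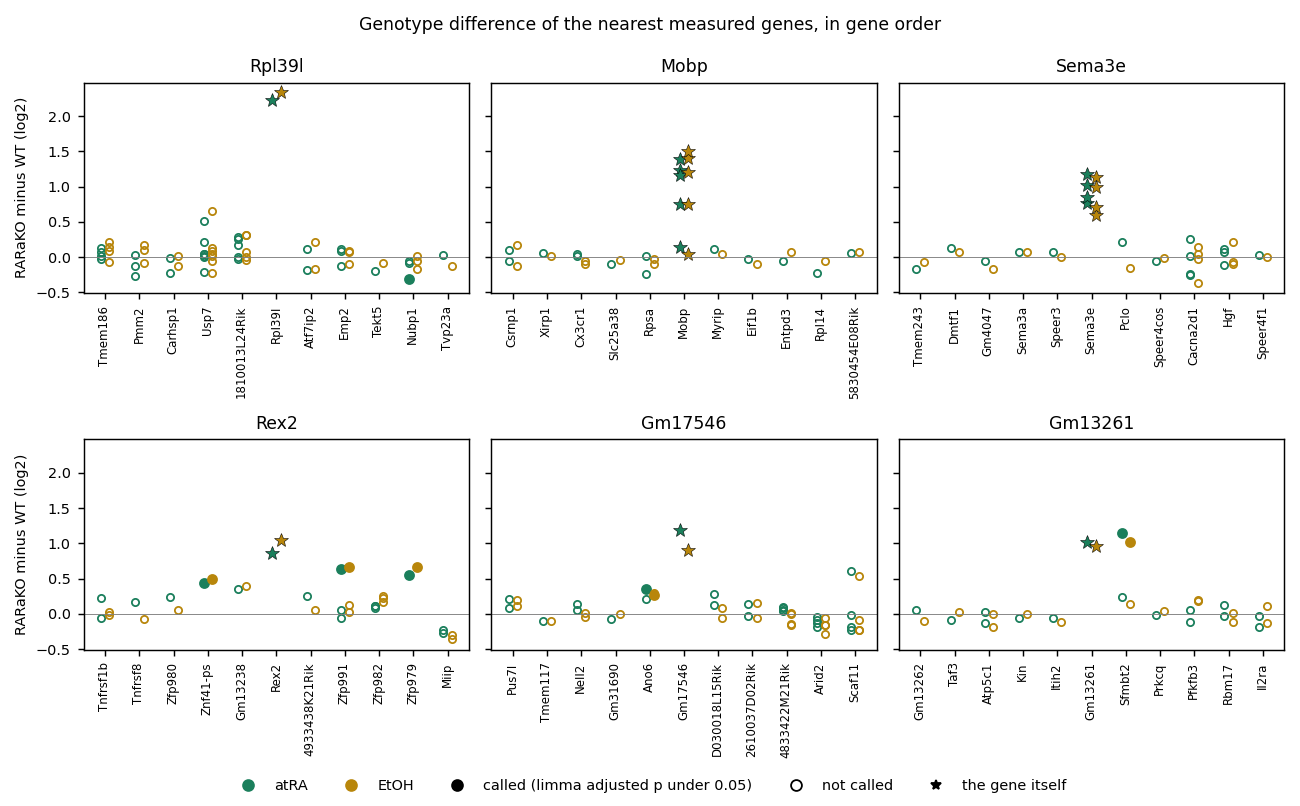
RARaKO minus WT (log2) of the 5 nearest measured genes on each side of the 6 placed genes, in gene order, in atRA and in EtOH. Filled points were called (limma adjusted p under 0.05) and the star is the gene itself; Rex2, Gm17546 and Gm13261 have called neighbours that are higher.

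Rpl39l is known for germ cell expression, so a list of germ cell genes was read beside it. Of 19 measured of 20 listed, 3 were called higher and 1 lower in atRA, where 2.39% and 2.69% of all genes were. In EtOH 3 were called higher, where 2.97% of all genes were. At an unadjusted p under 0.05, in either direction, there were 7 in atRA and 10 in EtOH, with no share over all genes computed. The list's median difference was 0.09 in atRA and 0.12 in EtOH. Dazl, an RNA-binding protein of germ cells, differed by 0.52 ± 0.08 in atRA (adjusted p = 0.00332) and 0.57 ± 0.08 in EtOH (adjusted p = 0.00159), and Tex19.1 by 0.58 ± 0.11 (adjusted p = 0.0138) and 0.61 ± 0.11 (adjusted p = 0.0107). The atRA call of Tex19.1 was lost without RARaKO or WT atRA of set 2 (adjusted p up to 0.059). Stk31 differed by 0.58 ± 0.09 in EtOH (adjusted p = 0.00403). Sycp1, a meiotic synapsis gene, was higher in atRA (0.43 ± 0.10, adjusted p = 0.0359) and Piwil2 lower (-0.29 ± 0.07, adjusted p = 0.0405), and neither call held throughout. That of Sycp1 was lost without any of 7 single arrays, RARaKO atRA of sets 2, 3 and 4, WT atRA of sets 2 and 3, RARaKO EtOH of set 2 or WT EtOH of set 4 (adjusted p up to 0.109), and that of Piwil2 without any of 9, all but RARaKO atRA and EtOH of set 4 and WT atRA of set 3 (adjusted p up to 0.167). None of the 7 spermatocyte and spermatid markers had a value of at least 8 on every array. Among 6 retinoid receptor genes, 4 were at an unadjusted p under 0.05 in each treatment, in either direction. Rara and Rarb were called higher in EtOH (0.90 ± 0.09, adjusted p = 1.5e-04, and 0.54 ± 0.09, adjusted p = 0.00394), and in atRA Rara was higher (0.36 ± 0.09, adjusted p = 0.0488) and Rxrg lower (-0.61 ± 0.12, adjusted p = 0.0145). The atRA call of Rara was lost without any of 9 single arrays, all but RARaKO atRA and WT atRA of set 3 and WT EtOH of set 4 (adjusted p up to 0.154), and that of Rxrg without RARaKO atRA of set 2 or WT atRA of sets 2 or 3 (adjusted p up to 0.0566). Over the 7 lists 31 genes were called in EtOH in either direction, with 21 higher and 4 lower in the list of 299 Zfp genes. The ribosomal protein, paralogue and myelin lists had 0 called in EtOH. Of all genes 2.97% were called higher and 1.97% lower in EtOH. With the set as a replicate block 49 list genes were called, and the share of all genes under it was not computed. Counted in probe sets, not genes, 1972 of all (5.24%) were called under the block against 1131 (3.01%) without it.

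The genes whose values ran most like those of each of the 7 over the 12 arrays were found by Pearson correlation. The points share arrays and the split by genotype, so these values describe likeness only. Rpl39l ran most like Slc38a4 (0.995), Ppcs (0.993) and Kti12 (0.992). Mobp 1421010_at ran most like Entpd7 (0.980), Kcnk5 (0.970) and Slc2a1 (0.968), and Sema3e 1419717_at like Zfp287 (0.984), Stil (0.981) and Usp1 (0.980). Rex2 1426137_at ran most like Mysm1 (0.978), Gpbp1l1 (0.973) and Zfp560 (0.972), Gm17546 like Tex19.1 (0.970), Cap1 (0.970) and Akr1a1 (0.965), Gm13261 like Akr1a1 (0.990), Mks1 (0.990) and Btbd19 (0.989), and 2410003I16Rik like Nipbl (0.963), Atp2b1 (0.961) and Rest (0.953). Of the 35 different genes found over all probe sets, 16 lie on chromosome 4 (45.7%), against 6.17% of the 16385 placed genes, while of the 6 placed members Rex2 alone does. The share among all genes higher in RARaKO arrays was not computed, so whether this is particular to the 7 genes was not tested.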

How the data were processed

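The deposited values are expression per probe set on a scale taken as log2. GCRMA is the tool that the submitters' processing notes name, with no version. The log base is not stated there. Every probe set was centred on its own median, a step the labels do not record. From single-precision steps in the values, the lowest array of each probe set could be put in 1 of 3 ranges before centring (8 or more, 4 to 8, under 4). The range is inferred from step size, so a probe set with few arrays under a bound can be put in the range above it. Of 37661 probe sets 61 controls were left out.

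limma 3.58.1 in R 4.3.3 fitted 4 group means over 12 arrays (lmFit, eBayes; 8 residual and 4.6 prior degrees of freedom), with two-sided p-values adjusted by Benjamini-Hochberg over 37600 probe sets and calls at an adjusted p under 0.05; the fit was tested on simulated data. The number of arrays limits the precision. A gene was called where any single-symbol probe set was. The members, the 7 lists and the tests were chosen with earlier results of these data known. Named were the members, Rara, called neighbours, up to 4 called genes per list and contrast with the smallest p, and the 3 genes most correlated with each member probe set; Rpl39, Plxnd1, Nrp1 and Sema3c were added as relatives or receptors. Deviations from the group means correlated within sets by 0.116 to 0.238 between RARaKO and WT in EtOH. The range was 0.117 to 0.497 between atRA and EtOH in RARaKO and 0.101 to 0.392 in WT. Between RARaKO and WT in atRA it was 0.038 to 0.287, so the pairing by set number was uneven there. Alternatives were a replicate block, array weights, quantile normalization, only the 6 arrays compared, an unmoderated test, a minimum level class and leaving out arrays or sets. Promoters are from RefSeq, and no protein sequence was used here.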

Additional observations from a re-analysis of the deposited data

How the results depend on the processing

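Of 30 genotype differences of the member probe sets, 29 kept their sign over the alternatives run. That of Mobp 1441308_at in EtOH (0.04) was -0.01 without RARaKO EtOH of set 2 and -0.02 without set 2. The counts of called probe sets depended on the fit, and the cause was not tested. For RARaKO against WT in EtOH, 1131 were called, 1972 with the set as a replicate block, 2071 with array weights, 668 unmoderated, and 217 to 1426 without single arrays or sets (545 and 619 without RARaKO EtOH of sets 3 and 2, 694 and 587 without WT EtOH of sets 3 and 4). In atRA 1173 were called, 592 with only the 6 arrays compared, 722 unmoderated and 320 to 1124 without single arrays or sets (776 without RARaKO atRA of set 2, 755 and 532 without WT atRA of sets 2 and 4). The replicate block gave 2344 there, where the correlation within sets was as low as 0.038. For the average response 603 were called, 887 with the replicate block, 350 unmoderated and 116 to 548 without single arrays or sets (347 without RARaKO EtOH of set 3, 395 without WT EtOH of set 2). Neighbour probe sets called in EtOH numbered 5, with 10 under the block, 12 with array weights, 1 unmoderated and 0 to 6 without arrays or sets. In atRA they numbered 6, with 1 from only the 6 arrays, 3 unmoderated and 0 to 6 without arrays or sets. At the count of 0, without set 3, 18 of 114 in EtOH and 19 in atRA had an unadjusted p under 0.05 (limma), with no share over all probe sets computed. List genes called in EtOH, in either direction, numbered 31, with 49 under the block, 58 with array weights, 17 unmoderated and 5 to 48 without arrays or sets. In atRA they numbered 27, with 51 under the block, 13 from only the 6 arrays, 14 unmoderated and 5 to 25 without arrays or sets. Leaving out a whole set ended most printed calls of single genes. Without any single one of the 3 sets the calls of Nubp1, Cnp, Sycp1, Piwil2, Rara and Ano6 in atRA, of Zfp979 in both treatments, and of Ano6 and Tex19.1 in EtOH were lost. In atRA calls were also lost without set 2 (Sfmbt2, Nrp2, Dazl, Tex19.1, Rxrg), set 3 (Sfmbt2, Nrp2, Dazl, Rxrg, Zfp991, Znf41-ps, Zfp560) and set 4 (Tex19.1, Znf41-ps). In EtOH they were also lost without set 2 (Stk31, Rarb), set 3 (Sfmbt2, Dazl, Rarb, Zfp991, Znf41-ps, Plxna2) and set 4 (Stk31, Zfp991, Znf41-ps, Plxna2).

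Average responses near 0, none of them called, changed sign: with quantile normalization Rpl39l (-0.11), Sema3e 1425906_a_at (-0.03) and Gm17546 (-0.03); with array weights Mobp 1441308_at (0.00), Sema3e 1425906_a_at (-0.01), Sema3e 1442226_at (-0.02) and the shared Rex2 probe set (0.00). Without single arrays or sets the average response ran from -0.04 to 0.10 for Rpl39l, -0.09 to 0.08 for Mobp 1441308_at, -0.03 to 0.10 for Sema3e 1419717_at, -0.08 to 0.11 for 1425906_a_at, -0.04 to 0.10 for 1442226_at, -0.04 to 0.02 for the shared Rex2 probe set and -0.03 to 0.12 for Gm17546. The replicate block changed no other call of a member's average response than those of Mobp 1421010_at and 2410003I16Rik.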
